A study of Bubalus bubalis with 6 samples.

Results

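The cytosolic ribosome of buffalo muscle stem cells (MuSCs) was examined through its protein genes. The genes were taken from the deposited gene table as every protein-coding row whose symbol is RPL or RPS followed by a digit, or is RPLP0, RPLP1, RPLP2 or RPSA, with the RPS6 kinases left out. This rule uses symbol and gene type and gave 56 of the 24616 listed genes. The set was chosen with earlier results of these data known. The study sequenced polyadenylated RNA of MuSCs from fetal buffalo longissimus muscle, as 3 samples of proliferating cells kept in growth medium with fetal bovine serum (GM) and 3 samples of cells moved to differentiation medium with horse serum near confluence (DM). Both groups are unmodified primary cells of the same kind and carry no transgene or deletion. Medium, serum and time in culture therefore differ together between the groups and cannot be told apart. The labels do not say whether samples were separate cultures, so p-values measure the spread between these samples, which may be technical.

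A ribosome is built from a small subunit, which reads the mRNA and whose proteins are named RPS, and a large subunit, which joins amino acids and whose proteins are named RPL. Each cytosolic ribosomal protein is encoded by a nuclear gene, and the proteins are assembled on ribosomal RNA in the nucleolus. Their mRNAs begin with a terminal oligopyrimidine (TOP) tract, through which mTOR signaling and LARP1 govern how strongly they are translated. Mammalian genomes also hold many intron-free copies of these genes, most of them processed pseudogenes. In cultured myoblasts, ribosome production is high while cells divide.

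Of the 56 genes, 49 encode structural proteins of the ribosome, 22 of the small and 27 of the large subunit. Another 5 are paralogs (RPL3L, RPL7L1, RPL10L, RPL26L1 and RPL36AL), and the last 2 match the rule by symbol only, RPS19BP1, which encodes a protein that binds RPS19, and RPL36A-HNRNPH2, a symbol that joins the names of a ribosomal protein gene and another gene, here on a row without introns. A list of 77 structural symbols was drawn up, of which 28, among them RPL5, RPL23, RPL38 and RPL13A, had no row under that symbol and were not analysed here. The rows carry cattle Ensembl identifiers, and coordinates below are those of the deposited table. The study's supplement names a buffalo assembly and its annotation, which does not match cattle identifiers, so the build of these coordinates is not settled. No sequence of these genes was analysed here.

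The rows fall into 2 kinds by their layout. For 40 genes the listed interval exceeded the listed transcript length by at least 772 bases, as for a gene with introns. For the other 16 the interval exceeded it by at most 44 bases, as for a copy without introns. These 16 were RPS6, RPS19, RPS27, RPS29, RPL21, RPL22, RPL23A, RPL26, RPL31, RPL36, RPL36A, RPL39, RPLP2, RPL10L, RPL36AL and RPL36A-HNRNPH2. They held 1.28% of the counts on all 56 genes. Whether reads on such a row came from that interval or from a spliced gene elsewhere cannot be told apart from these tables. The structural genes with introns number 36, 18 in each subunit, and the account of levels and changes rests on them. The bound of 50 bases that separates the kinds was set after the values were seen.

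Gene counts ranged from 35615864 to 40305237 per sample. DM replicate 3 stood apart, since its counts gave 34.6 to 35.2 as chi-square over degrees of freedom against the other DM samples, and the remaining replicate pairs gave 5.47 to 10.1, where sampling noise alone gives values near 1. Markers of the labelled cell type were present. Of 6 myogenic markers, 5 were listed and all 5 were detected, with a summed level of 2434 to 2659 CPM (counts scaled to library size and TMM factor) in GM samples and 2048 to 2632 CPM in DM samples. The list mixes markers of stem cells and of differentiating cells. A sum can rest on an abundant marker and does not give the level of each. The 5 myotube markers summed to 384 to 795 CPM in GM samples and 5219 to 7498 CPM in DM samples. The 5 fibroblast markers were detected in both groups and summed to 24623 to 24838 CPM in GM samples and 76417 to 96329 CPM in DM samples. The 4 adipocyte markers reached 2.19 to 3.51 CPM in GM samples and 6.78 to 8.08 CPM in DM samples, and the 4 endothelial markers 2.61 to 3.03 CPM and 0.977 to 1.53 CPM. The 4 immune markers summed to 5.54 to 7.06 CPM in GM samples and 6.86 to 13.1 CPM in DM samples, with PTPRC and CD3E at or below 3 counts. Of the 3 red cell markers 2 were listed, HBB being at or below 3 counts, and their sum stayed at or below 0.216 CPM. The part of these markers in the results on ribosomal protein genes was not tested. In bulk RNA, a change in the number of cells of a type and a change in RNA per cell cannot be told apart.

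Ribosomal protein genes were among the most abundant genes in both groups. Ranked by mean count over the 6 samples, RPSA, which encodes a small subunit protein also known as the laminin receptor, was number 18 of all genes, RPS2 was number 24 and RPLP0, the base of the large subunit stalk, was number 27. In all, 12 of the 56 genes were among the 100 genes of highest mean count and 27 among the first 200. The 4 highest held 27.8% of the counts on the 56 genes.

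Per length, on the deposited RPKM scale (reads scaled by gene length and sequencing depth), the 36 structural genes with introns had similar levels. Their mean RPKM over the 6 samples had a median of 1402 with quartiles of 1122 and 1758, and 29 of the 36 lay within 2-fold of that median. The highest was RPSA at 3334 ± 132 RPKM in GM samples and 3529.6 ± 267 RPKM in DM samples (SD, n = 3 per group). RPLP1, a stalk protein that contacts elongation factors, followed at 2993 ± 104 RPKM and 3447 ± 131 RPKM. RPS2, a protein near the mRNA entry channel, was at 2774 ± 236 RPKM and 3472 ± 227 RPKM. These leading genes were within their spread of one another in the DM samples. The lowest were RPS26 at 137 ± 2.93 RPKM in GM samples and RPL15 at 347 ± 24.3 RPKM, so the 36 genes spanned 24.7-fold from RPS26 to RPSA in mean RPKM. RPS26 and RPL15 had listed lengths of 1263 and 2194 bases, and RPKM divides by that length. The order of the genes was kept between the groups, with Spearman's rho of 0.935 across the 36 genes, a description of genes measured in the same libraries.

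**Figure D1:**
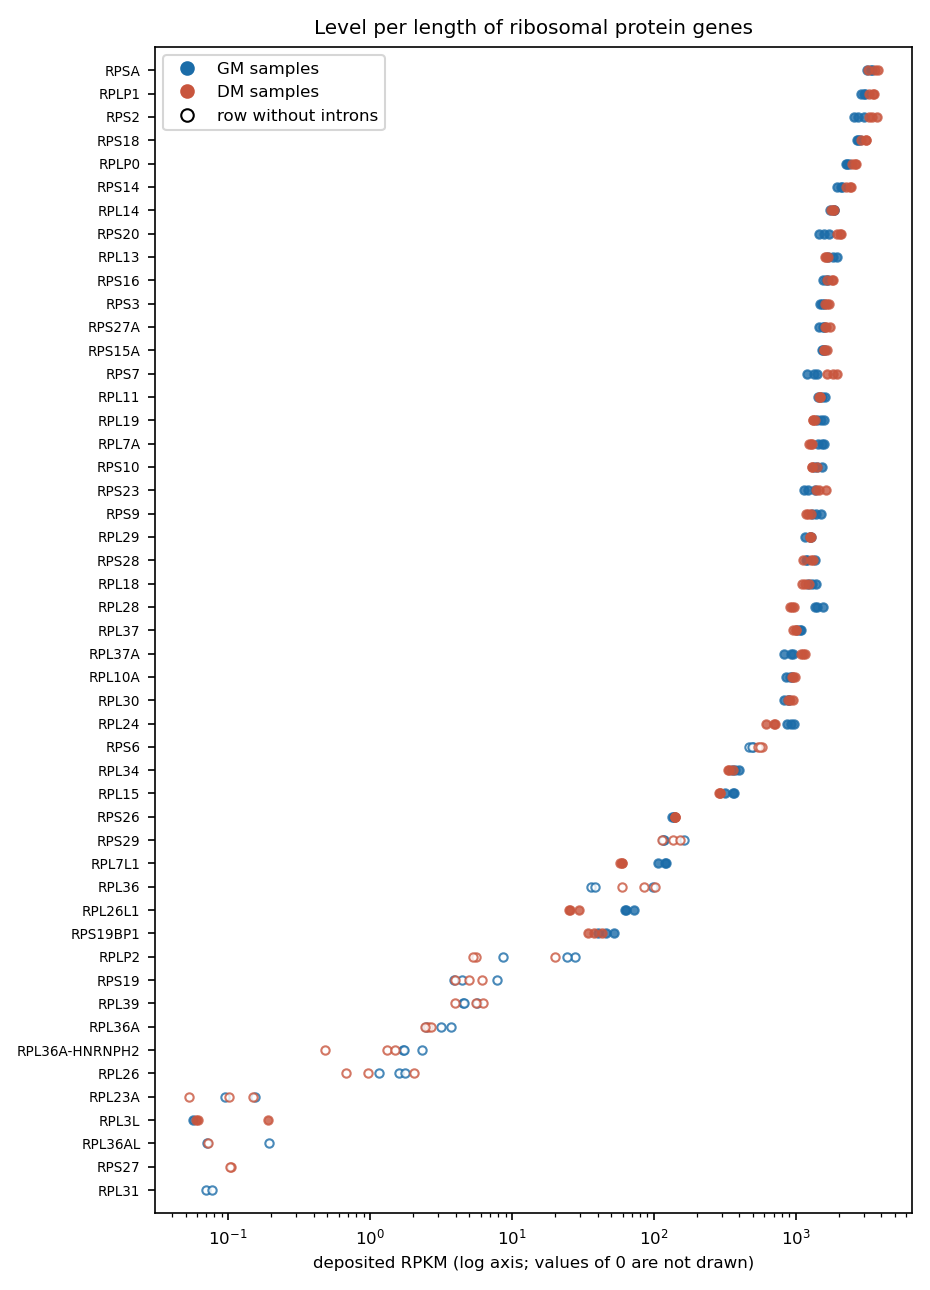
Deposited RPKM (log axis) of the ribosomal protein genes with at least 1 count that are drawn here, with 1 point per sample, blue for the 3 GM and red for the 3 DM samples, open where the row has no introns. The structural genes with introns sit at the upper end, from RPS26 at 139 to RPSA at 3432 mean RPKM, while most rows without introns lie far lower, apart from RPS6 within their range and RPS29 and RPL36 near its lower end.

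Differentiation was compared with proliferation by testing each gene in DM against GM samples. Of the 56 genes, 50 had at least 10 counts in total and were tested among 15576 genes, and 6 were not tested. A single gene, the paralog RPL26L1, passed an adjusted p under 0.05 together with an absolute log2 fold change above 1, and it fell. Of all genes tested 25.3% were called in this way, 15% higher and 10.3% lower in DM samples. At an adjusted p under 0.05 alone, 19 of the 50 rose in DM samples, 4 fell and 27 did not pass (edgeR). Over all genes tested, 63% passed by that rule, with 31.6% higher and 31.4% lower. The groups did not overlap for 24 genes with DM higher and 7 with DM lower, beside 34.5% and 34.3% (68.8% together) over all genes, and they overlapped for 19. The median log2 fold change of the 50 genes was 0.14, beside 0.03 over all genes tested.

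The count that rose depended on the scaling. When only library size was used, with no TMM factors, 11 of the 50 rose and 8 fell, beside 27.4% and 35.5% over all genes, and the median of the 50 was 0.04 while that of all genes was -0.07. A change of scaling moves all genes nearly alike, and the median of the 50 minus that of all genes was 0.11 under both. It was 0.068 without GM replicate 1 and 0.18 when genes were kept for testing by the study's RPKM minimum. Those runs tested 15381 and 11587 genes and not all of the 50, so these values are also over other sets of genes. DM replicate 3 and GM replicate 1 also bore on the falls, with 7 genes passing without the former and 6 without the latter.

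The changes of the structural genes with introns were small. Their log2 fold changes ran from -0.52 to 0.56, with a median size of 0.19 regardless of sign, beside 0.57 over all genes tested. For all 36 the 95% interval of the log2 fold change lay inside -1 to 1, under TMM factors, under library size alone and under scaling to the ribosomal protein genes. For 28 of the 36 it lay inside -0.5 to 0.5 under TMM factors. The coefficient of variation of CPM over the 6 samples had a median of 8.65% for these genes and 27.4% for all genes tested. RPL37 had the lowest, 3.27%, and was number 77 of the 15576 genes by this measure.

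**Figure D2:**
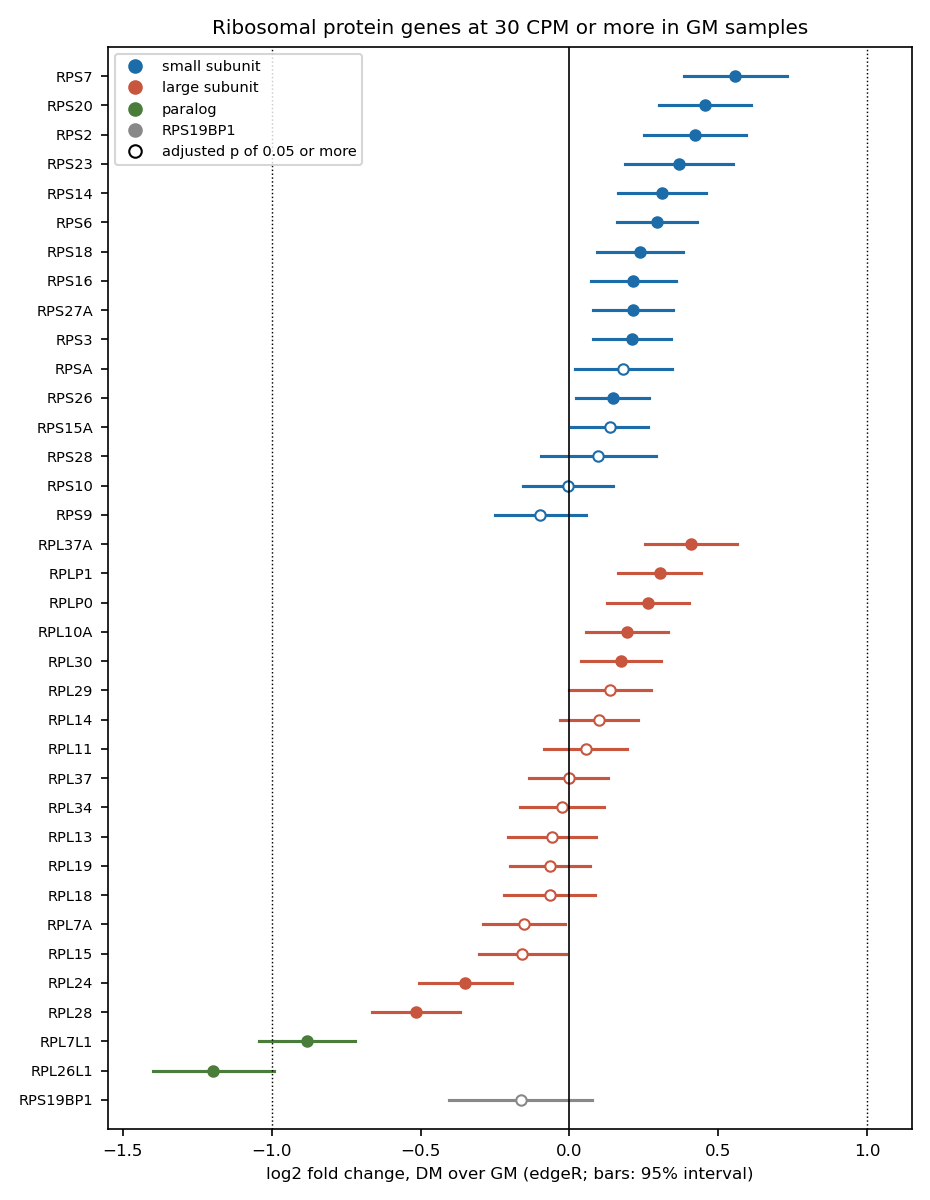
Log2 fold change of DM over GM (edgeR, points) with its 95% interval (bars) for the 36 ribosomal protein genes drawn here. Their mean in GM samples reached 30 CPM, and they are grouped by small subunit, large subunit, paralogs and RPS19BP1. They include RPS6, RPL26L1, RPL7L1 and RPS19BP1 and are not the same set as the 36 structural genes with introns. Filled points have an adjusted p under 0.05. Small subunit genes lie mostly right of 0, large subunit genes on both sides, and RPL26L1 alone lies beyond the dotted line at -1.

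The genes of the 2 subunits were then counted apart. Of the 18 small subunit genes with introns, 13 rose, none fell and 5 did not pass (edgeR adjusted p), and 15 had DM samples above GM samples without overlap. Beside these counts stand 31.6% rises and 31.4% falls over all genes tested, with 34.5% higher and 34.3% lower without overlap. By DESeq2 14 rose and 0 fell, and at an unadjusted p under 0.05 in edgeR 0 fell. Of the 18 large subunit genes with introns, 5 rose, 2 fell and 11 did not pass, with 7 higher and 4 lower without overlap. The median log2 fold change was 0.23 for the small and 0.03 for the large subunit. With library size alone the counts were 7 rises and 1 fall against 3 rises and 5 falls, beside 27.4% and 35.5% over all genes, and the medians were 0.13 and -0.07. The median of the large subunit also turned, to -0.02, without GM replicate 1 under TMM factors. The difference between the medians was 0.20, which a change of scaling leaves nearly as it is by construction, and 0.19 to 0.22 with 1 sample left out.

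The share of gene counts on each subunit uses no TMM factor. Small subunit genes with introns held 1.91, 2.10 and 2.03% of gene counts in the GM samples and 2.25, 2.29 and 2.23% in the DM samples. Large subunit genes with introns held 1.58, 1.73 and 1.69% in the GM samples and 1.62, 1.64 and 1.63% in the DM samples. With all gene counts as the divisor, all DM samples were above all GM samples for the small subunit. For the large subunit the groups overlapped. The exact two-sided permutation test gave p = 0.1 for the small subunit, the smallest it can give with 3 samples against 3, and p = 0.4 for the large subunit. These shares depend on the divisor, which includes the most abundant genes. Without the 50 most abundant other genes, all listed ribosomal protein genes together held 4.36, 4.74 and 4.63% in the GM samples. In the DM samples they held 5.45, 5.42 and 5.31%. The subunit shares were not computed with that divisor, so the overlap for the large subunit holds only for all gene counts.

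The ratio of small to large subunit counts was 1.21, 1.22 and 1.20 in the GM samples and 1.39, 1.40 and 1.37 in the DM samples. It was 1.21 ± 0.00948 in GM and 1.39 ± 0.0170 in DM samples (SD, n = 3 per group), with no overlap and p = 0.1 in the exact two-sided permutation test. Without RPSA, RPS2, RPLP0 and RPLP1, whose counts are high, the mean ratio was 1.12 in GM and 1.35 in DM samples. In the mRNA transcript table it was 1.26 and 1.44. The ratio was chosen after the values of single genes were seen.

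Together the 56 genes held 3.55, 3.89 and 3.78% of gene counts in the GM samples and 3.93, 3.99 and 3.93% in the DM samples. Every DM sample was above every GM sample, by 0.208 percentage points on average, with p = 0.1 in the exact two-sided permutation test. With only protein-coding genes as the divisor the difference was 0.207 points, and without GM replicate 1 it was 0.111 points. In the mRNA transcript table, which changes both the transcripts counted and the divisor, the means were 3.527% and 3.529%, a difference of 0.00182 points with overlapping groups (exact p = 1). When the 50 most abundant genes that are not ribosomal protein genes were left out, the difference was 0.819 points.

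**Figure D3:**
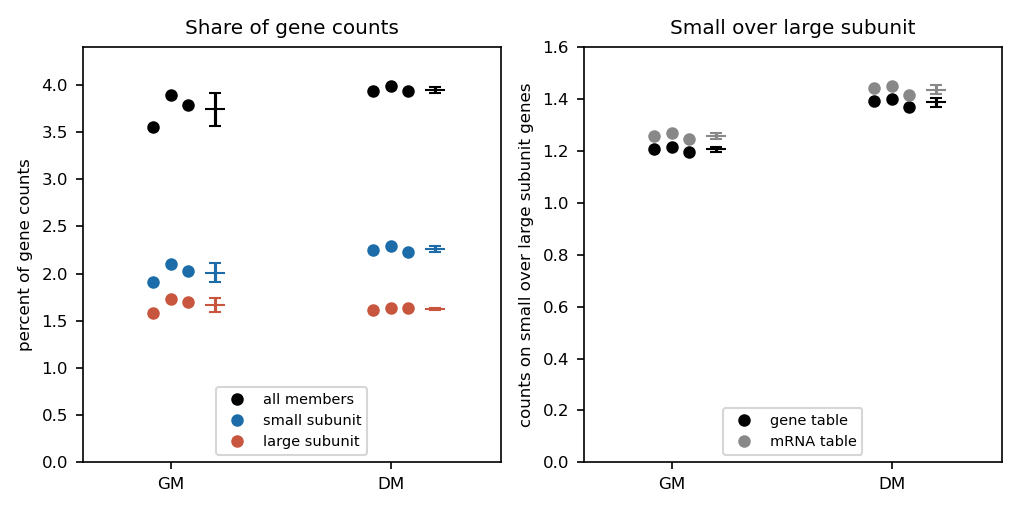
Left, percent of a sample's gene counts on all 56 ribosomal protein genes (black), on small subunit genes with introns (blue) and on large subunit genes with introns (red). Right, counts on small over large subunit genes in the gene table (black) and the mRNA transcript table (grey). Points are single samples and bars are mean ± SD of 3 samples, and the ratio is near 1.21 in GM and 1.39 in DM samples of the gene table.

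Among small subunit genes, RPS7, a protein of the subunit body that also binds MDM2, had the largest rise. It stood at 859.9, 1017 and 957 CPM in the GM samples and 1299, 1386 and 1484 CPM in the DM samples. The lowest DM sample was above the highest GM sample (log2 fold change 0.56 ± 0.08 SE, n = 3 per group, edgeR adjusted p = 0.000102). RPS7 lies on chromosome 8, 112896493 to 112901718 (ENSBTAG00000016224).

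RPS20, a protein of the subunit head, followed with 660.3, 779.8 and 721 CPM in the GM samples and 971, 997 and 993 CPM in the DM samples. The DM samples were close to one another and all above the GM samples (log2 fold change 0.45 ± 0.07 SE, n = 3 per group, edgeR adjusted p = 0.000196). RPS2 stood at 2319, 2756 and 2487 CPM in the GM samples and 3392, 3558 and 3176 CPM in the DM samples, again without overlap (log2 fold change 0.42 ± 0.08 SE, n = 3 per group, edgeR adjusted p = 0.000672). It lies on chromosome 25, 5113 bases from RPL3L.

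RPS23, a protein of the decoding centre, rose by a log2 fold change of 0.37, with an adjusted p of 0.00258 (edgeR). RPS14, RPS18, RPS16, RPS27A, RPS3 and RPS26 rose by log2 fold changes between 0.14 for RPS26 and 0.31 for RPS14. With library size alone RPS23 and RPS14 still passed, while RPS18, RPS16, RPS27A, RPS3 and RPS26 did not. RPS27A, which is made as a fusion with ubiquitin, had 697 ± 29.4 CPM in GM and 808 ± 27.9 CPM in DM samples (SD, n = 3 per group). RPS18 had 1436 ± 26.4 CPM and 1693 ± 109.8 CPM.

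The small subunit genes with introns that did not pass were RPSA, RPS15A, RPS28, RPS10 and RPS9. RPSA stood at 3062, 3264 and 3313 CPM in the GM samples and 3957, 3639 and 3331 CPM in the DM samples. The groups did not overlap, but DM replicate 3 was just above the highest GM sample (log2 fold change 0.18 ± 0.07 SE, n = 3 per group, edgeR adjusted p = 0.0519). RPS9 had the lowest log2 fold change of the subunit, -0.10, with an adjusted p of 0.242 (edgeR).

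RPS6, a phosphorylation target of the S6 kinases downstream of mTOR, is listed without introns at chromosome 2, 111820296 to 111821112, opposite the protein-coding gene ACSL3. It stood at 371, 397 and 389 CPM in the GM samples and 493, 453 and 472 CPM in the DM samples. All DM samples were above all GM samples (log2 fold change 0.29 ± 0.06 SE, n = 3 per group, edgeR adjusted p = 0.00155), and it was the only row without introns to pass. With unstranded counting, reads of RPS6 and ACSL3 could not be told apart, and whether counting used strand is not given in the sources used here.

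Among large subunit genes, RPL37A, a small zinc-finger protein, had the largest rise of those with introns. It stood at 525, 612 and 589 CPM in the GM samples and 779, 774 and 735 CPM in the DM samples, without overlap (log2 fold change 0.41 ± 0.07 SE, n = 3 per group, edgeR adjusted p = 0.000439). The stalk genes RPLP1 and RPLP0 rose as well. RPLP1 stood at 1430.1, 1532 and 1516 CPM in the GM samples and 1903, 1732 and 1888 CPM in the DM samples (log2 fold change 0.30 ± 0.06 SE, n = 3 per group, edgeR adjusted p = 0.00171), and RPLP0 had 2432 ± 69.5 CPM in GM and 2921 ± 151 CPM in DM samples (log2 fold change 0.26 ± 0.06 SE, n = 3 per group, edgeR adjusted p = 0.00355). RPL10A (0.19) and RPL30 (0.17) rose by less, with adjusted p-values of 0.0196 and 0.0274 (edgeR). With library size alone RPL10A and RPL30 did not pass.

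RPL28 had the largest fall of the structural genes that passed. It stood at 670.1, 757 and 692 CPM in the GM samples and 504, 470.3 and 508 CPM in the DM samples, and every DM sample was below every GM sample (log2 fold change -0.52 ± 0.07 SE, n = 3 per group, edgeR adjusted p = 5.58e-05). RPL28 lies on chromosome 18, 62547220 to 62549950 (ENSBTAG00000023343), a chromosome that holds 7 of the 56 genes. Of the others there, RPS16 was among those that rose, while RPL13, RPL18 and RPS9 did not pass.

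RPL24, a late-joining protein at the face between the subunits, also fell. It stood at 454, 518 and 487 CPM in the GM samples and 356, 394 and 394 CPM in the DM samples, without overlap (log2 fold change -0.35 ± 0.07 SE, n = 3 per group, edgeR adjusted p = 0.00134). RPL11, which binds MDM2 together with RPL5, did not pass, with 883 ± 50.8 CPM in GM and 917 ± 23.6 CPM in DM samples (log2 fold change 0.05 ± 0.06 SE, n = 3 per group, edgeR adjusted p = 0.475), and its sign turned with library size alone. RPL7A, RPL15, RPL13, RPL18, RPL19, RPL34 and RPL37 had log2 fold changes of -0.16 for RPL15 to -0.0020 for RPL37, and RPL14 and RPL29 of 0.10 and 0.14, none past the threshold. RPL7A and RPL15 came near it, with adjusted p-values of 0.0502 and 0.0568 (edgeR). The groups did not overlap for RPL7A and RPL15, lower in DM samples, or for RPL14 and RPL29, higher in DM samples. With library size alone RPL7A, RPL15 and RPL19 passed as falls, and by DESeq2 RPL7A did.

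Each gene was also tested against the summed counts of the structural genes, which asks how it moved relative to that sum. The sum includes the tested gene where it is structural and lacks the 28 structural symbols without a row. Shares of a sum cannot all move the same way, so these counts are not separate from the subunit difference above. By this scaling 5 of the 50 rose, among them RPS7, RPS20, RPS2 and RPL37A, and 14 fell (edgeR adjusted p), beside 24% and 38.7% over all genes tested. The median of all genes was -0.16 here, and that of the 50 was -0.04. Among genes with introns, 4 rose and 2 fell in the small subunit (RPS9 and RPS10), and 1 rose and 9 fell in the large subunit (RPL28, RPL24, RPL15, RPL7A, RPL18, RPL19, RPL13, RPL34 and RPL37). The 3 further falls were RPL26L1, RPL7L1 and RPS19BP1. RPS7 was higher by 0.38 and RPL28 lower at a log2 fold change of -0.70 relative to the summed counts. Without GM replicate 3, only 3 genes rose by this scaling.

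**Figure D4:**
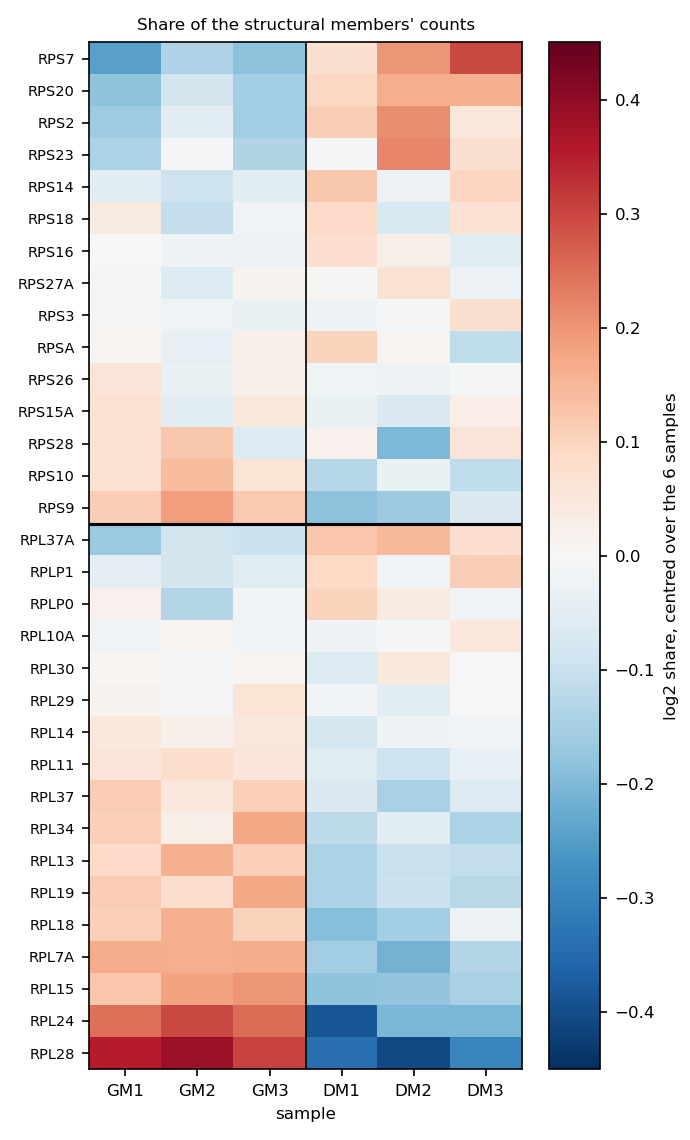
Colour gives the log2 share of the structural genes' summed counts in each of the 6 samples, centred per gene, for 15 small subunit genes (above the line) and 17 large subunit genes (below it) with introns. Red is a higher share and blue a lower one. RPS7 and RPS20 head the small subunit with higher shares in the 3 DM samples, and RPL28 and RPL24 end the large subunit with lower ones.

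Among the paralogs, RPL26L1, a close relative of the large subunit protein RPL26, had 1616, 1651 and 1705 counts in the GM samples and 594, 607 and 731 counts in the DM samples. In CPM this was 41.2 ± 3.28 and 18.0 ± 1.62 (SD, n = 3 per group), with no overlap. The log2 fold change was -1.20 with a 95% interval of -1.40 to -0.99 (edgeR adjusted p = 1.08e-06). RPL26L1 lies on chromosome 20, 4626432 to 4632649, has introns, and overlaps no other listed gene on the opposite strand. The row for its parent RPL26 has no introns and held 0.631 ± 0.133 CPM in GM and 0.555 ± 0.324 CPM in DM samples, so the pair could not be set side by side. Reads of near-identical copies may be split between rows, so the values of paralogs and copies are uncertain.

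RPL7L1, which is named for its likeness to RPL7, stood at 77.2, 88.5 and 86.2 CPM in the GM samples and 47.0, 43.8 and 45.8 CPM in the DM samples. All DM samples were below all GM samples (log2 fold change -0.88 ± 0.07 SE, n = 3 per group, edgeR adjusted p = 1.94e-06). Relative to the summed structural counts its log2 fold change was -1.06. RPL3L, the muscle form of RPL3 that takes its place in striated muscle ribosomes, had 3, 0 and 0 counts in the GM samples and 9, 3 and 3 counts in the DM samples. The sums of 3 and 15 counts gave a ratio of 5.27 per gene count, with an exact 95% interval of 1.49 to 28.4 for counting error only. The adjusted p was 0.0887 (edgeR), and it passed without GM replicate 1, at 0.0305, and without DM replicate 3, at 0.0441. RPL10L had no count in any sample and RPL36AL 5 or fewer counts in total, and the parents RPL3, RPL7 and RPL10 were not analysed here.

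Of the 16 rows without introns, 10 were tested, and 6 of these had means under 3 CPM in both groups. Over the 10, the coefficient of variation ranged from 11.7% for RPS6 to 63.7% for RPLP2, with a median of 33.3%. A total of 7 lay opposite a protein-coding gene, among them RPS6, RPS19, RPL26 and RPL36.

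The row of RPLP2, the partner of RPLP1 in the stalk, has no introns and may not give the level of a spliced gene. It averaged 8.68 CPM in GM and 4.71 CPM in DM samples, while RPLP1 averaged 1493 and 1841 CPM. The RPLP2 row had 492, 154 and 397 counts in the GM samples and 88, 88 and 337 counts in the DM samples. The groups overlapped because DM replicate 3 lay within the GM range (log2 fold change -0.88 ± 0.52 SE, n = 3 per group, edgeR adjusted p = 0.162). Without DM replicate 3 it passed, at a log2 fold change of -1.78 and an adjusted p of 5.78e-06 (edgeR). RPL36, also on a row without introns, stood at 37.3, 13.7 and 14.6 CPM in the GM samples and 35.2, 23.9 and 41.6 CPM in the DM samples, with GM replicate 1 among the DM samples (log2 fold change 0.62 ± 0.34 SE, n = 3 per group, edgeR adjusted p = 0.137). Without GM replicate 1 it passed at 1.25 with an adjusted p of 0.000881 (edgeR).

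The row of RPS19, a small subunit protein mutated in Diamond-Blackfan anemia, has no introns. It had 2.28 ± 0.912 CPM in GM and 2.28 ± 0.475 CPM in DM samples, and its log2 fold change of 0.00 changed sign across settings. RPL36A had 1.25 ± 0.251 CPM and 1.11 ± 0.0489 CPM, with a log2 fold change of -0.17 and an adjusted p of 0.615 (edgeR). RPL10L, RPL21 and RPL22 had 0 counts in all samples, which allows up to 0.0744 to 0.0842 CPM per sample at 3 counts of the total, for counting error only. RPL31, RPL36AL and RPS27 had 2 to 5 counts in total. All the rows named in this paragraph have no introns, so their low counts do not give the level of a spliced gene elsewhere.

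Genes with a related role were set beside them. Of 71 mitochondrial ribosomal protein genes, 1 rose and 46 (64.8%) fell (edgeR adjusted p), beside 31.6% and 31.4% over all genes tested, with a median log2 fold change of -0.38. Of these falls 3 exceeded 2-fold, or 4.23% of the list beside 10.3% of all genes. Of 52 genes with EIF or EEF symbols, 7 (13.5%) rose and 32 (61.5%) fell, with a median of -0.31. Most encode initiation or elongation factors, but the symbols also take in regulators such as the kinases EIF2AK1 and EEF2K and the inhibitors EIF4EBP1 and EIF4EBP2. Both medians stand below those of the small subunit (0.23) and large subunit (0.03) of the cytosolic ribosome. The difference between these lists was not tested.

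**Figure D5:**
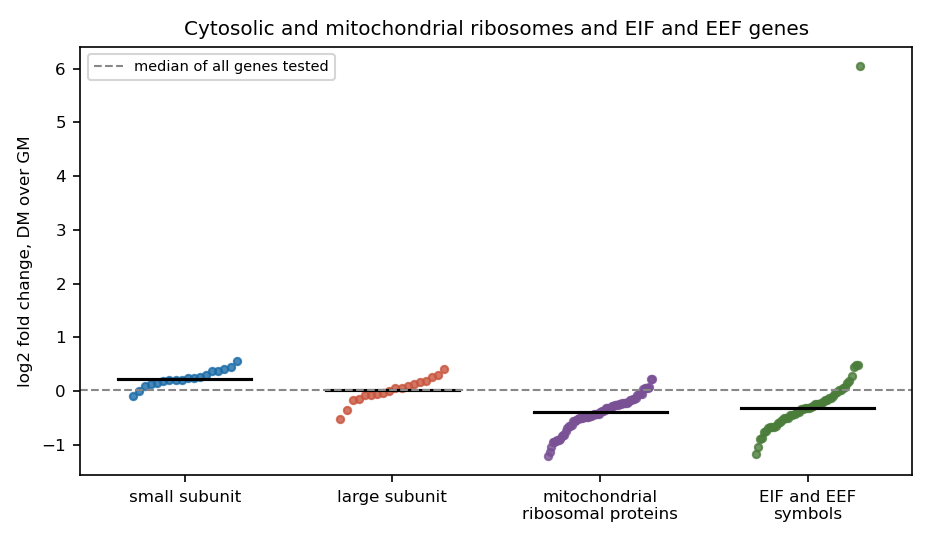
Log2 fold change of DM over GM (edgeR) for each gene of 4 lists, the small and large subunit genes with introns, the mitochondrial ribosomal protein genes and the genes with EIF or EEF symbols. Black bars are medians (0.23, 0.03, -0.38 and -0.31) and the dashed line is the median of all genes tested (0.03). The single point near 6 is EEF1A2, the muscle form of elongation factor 1 alpha.

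Of 23 other genes on a list of mRNAs with a TOP tract, 15 were tested, of which 6 rose and 4 fell (edgeR adjusted p), or 40% and 26.7%, beside 31.6% and 31.4% over all genes, with a median of -0.03. EEF2, EIF3E, EIF4B, EIF3L, EIF3K, EEF1G, EIF3H, EEF1A1 and EEF1B2 on this list were also counted among the EIF and EEF symbols above. RACK1, a scaffold on the small subunit, rose by 0.32, and FAU, which encodes a ribosomal protein fused to a ubiquitin-like protein, rose by 0.35. BTF3 and EIF3L fell, at log2 fold changes of -0.61 and -0.66, as did the elongation factor EEF2 at -0.24. These genes were named after their values were seen.

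Of 11 chaperones and binding proteins of ribosomal proteins 6 were tested, of which 1 rose and 4 fell (31.6% and 31.4% over all genes), and the list shares RPS19BP1 with the 56 genes. GRWD1, a chaperone of RPL3, fell from 72.8 ± 3.72 CPM in GM to 32.1 ± 4.27 CPM in DM samples, at a log2 fold change of -1.18 ± 0.10 (SE, n = 3 per group, edgeR adjusted p = 1.66e-06). Of 28 genes of the mTOR and LARP1 pathway 25 were tested, of which 8 (32%) rose and 12 (48%) fell, and 4 (16%) rose by over 2-fold. The shares that rose were near those over all genes, 31.6% and, by over 2-fold, 15%, and 31.4% of all genes fell. EIF4E, EIF4EBP1 and EIF4EBP2 on this list were also counted among the EIF and EEF symbols above. DEPTOR, an inhibitor of mTOR, had 1, 4 and 1 counts in the GM samples and 37, 55 and 33 counts in the DM samples, a ratio of 21.9 per gene count with an exact 95% interval of 9.80 to 60.9 for counting error only. RRAGB, a Rag GTPase that recruits mTORC1 to lysosomes, rose from 2.37 ± 0.284 to 5.22 ± 1.02 CPM (log2 fold change 1.14).

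A further list of 10 genes held members of the MDM2 and p53 pathway, through which free ribosomal proteins such as RPL5 and RPL11 act. It also held MYC, MAX, MXD1 and MNT, which are not of that pathway. All 10 were tested, of which 4 rose and 2 fell, beside 31.6% and 31.4% over all genes. MNT was among the rises and MYC among the falls. CDKN1A, the p21 inhibitor of cyclin-dependent kinases, had 57.1, 44.0 and 59.7 CPM in the GM samples and 241, 264 and 292 CPM in the DM samples. The groups were far apart, with a log2 fold change of 2.31 ± 0.12 (SE, n = 3 per group, edgeR adjusted p = 5.57e-08). CDKN2A rose from 2.15 ± 0.0661 to 5.38 ± 1.40 CPM at a log2 fold change of 1.32 ± 0.21 (SE, n = 3 per group, edgeR adjusted p = 0.000283).

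In their positions, 11 of the 56 genes held 20 small nucleolar RNA rows on the same strand, such as SNORD15 within RPS3, SNORA64 within RPS2 and SNORA62 within RPSA. Small nucleolar RNAs guide the chemical modification of ribosomal RNA and are cut from introns.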

How the data were processed

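Polyadenylated RNA of 3 GM and 3 DM samples was sequenced by the authors, who aligned reads with HISAT2. The deposited counts are raw reads per gene without normalization, and the RPKM values were computed by the authors from these counts, the Length column and the summed gene counts, a relation that was checked on the table. The submitters' processing notes name Bowtie and mouse genome builds, which could not be matched to tables of cattle identifiers. The methods name a buffalo assembly and annotation, which the cattle identifiers do not match, so the build of the tables is not settled. The authors' own fold changes and p-values were not used. No sample column was left unmapped (0 columns).

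Testing used edgeR 4.0.16 under R 4.3.3, with its quasi-likelihood fit (glmQLFit, glmQLFTest) and TMM factors, on genes whose counts summed to 10 or more, with Benjamini-Hochberg adjustment over all 15576 genes tested. TMM factors were 1.03 to 1.04 in GM and 0.948 to 0.983 in DM samples, with 35615864 to 40305237 gene counts per sample. CPM were scaled to the library size times its TMM factor. Calls used an adjusted p under 0.05, with or without an absolute log2 fold change above 1. Standard errors were taken from the F statistic. The relative fit used the summed counts of the structural genes as library size. Shares and ratios were compared with exact two-sided permutation tests. The steps were tested on simulated data.

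The genes and lists were chosen with earlier results of these data known. Named genes were those called at 2-fold, the 5 highest and 5 lowest changes and the 3 highest and 3 lowest RPKM of structural genes, the paralogs with their parents, 15 genes set by name, and the 2 called genes of largest change in each of 4 other lists. Other genes were named after their values were seen. Some genes are not reported here by name, in the text or the plots, though all counts include them. Alternatives were DESeq2 1.42.0, other scalings and filters on low counts, protein-coding genes only, omission of the 50 most abundant genes, the mRNA transcript table, a replicate block and each sample left out. Summaries were made with scipy 1.17.1, numpy 2.4.6 and pandas 2.3.3 under Python 3.11.15.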

Additional observations from a re-analysis of the deposited data

How the results depend on the processing

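RPL26L1 was called at 2-fold in every alternative run. Leaving out 1 sample gave 1 to 3 such genes, 3 without GM replicate 1 (RPL3L and RPL36 added) and 3 without DM replicate 3 (RPL3L and RPLP2 added). The genes that rose numbered 15 to 21 with 1 sample left out, 11 with library size alone and 5 with the structural genes as library size. The genes that fell numbered 4 to 7 with 1 sample left out, 8 with library size alone and 14 with the structural genes as library size. The median of the 50 genes was 0.037 with library size alone. The difference in the share of counts was 0.111 to 0.282 points with 1 sample left out, 0.819 points without the 50 most abundant genes and 0.00182 in the mRNA transcript table. Relative to the summed counts, 3 to 7 genes rose with 1 sample left out.

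RPL11 turned to -0.044 with library size alone. RPS19, near 0 throughout, turned to -0.10 with library size alone, -0.0029 without a filter, -0.01 over protein-coding genes, -0.018 in the mRNA table, -0.19 and -0.12 without GM replicates 1 and 2 (0.37 without GM replicate 3), and -0.0033 and -0.14 without DM replicates 1 and 2. RPL26 turned to 0.13 without DM replicate 2 and was -0.75 without DM replicate 3. The cause was not tested. Of the comparisons of single named genes with their alternatives, 401 kept direction and side of the threshold, 11 passed it anew, 6 lost it and these 10 turned.

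Samples with the same replicate number did not deviate together, with correlations of -0.0076, -0.022 and -0.010. Paired cultures from the same pool of cells could also give values near 0, so whether the numbers pair cultures is not settled. With a replicate block 19 genes rose and 5 fell, 1 of them by 2-fold, with RPL36 and RPLP2 gained and RPS26 lost, and relative to the summed counts 6 rose and 14 fell. Genes with few counts, such as RPL3L, RPL26 and RPL36A, are limited by depth.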
